A study of Mus musculus with 8 samples.

Results

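Interleukins are secreted signals between cells of the immune system, and several of them also act between microglia, astrocytes and neurons. A ligand binds a receptor made of 2 or more chains, and 1 chain is often shared by several ligands. Receptors of the IL-6, IL-12, IL-10 and common gamma chain families signal through JAK kinases and STAT factors, whereas receptors of the IL-1 and IL-17 families signal through adaptors such as Myd88 and Traf3ip2 to NF-kB. In brain tissue, microglia and infiltrating macrophages are known as a main source of IL-1 and of the subunits of IL-12 and IL-23, and IL-33 is held in the nuclei of astrocytes and oligodendrocytes.

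The genes described here were all those whose single annotated symbol starts with Il and a number, 73 of the 18194 genes measured. They comprised 34 ligands, 35 receptor chains and 4 others, namely the secreted binding proteins Il18bp and Il22ra2, the amino acid oxidase Il4i1 and the antisense transcript Il1bos. No result is given for the receptor chains Il1rl1, Il23r and Il2rg or the ligands Il27, Il17f and Il19. These genes were not among the 73. RNA of the hypothalamus of 10-week-old mice was hybridised to Affymetrix mouse arrays, with 4 wild type mice (replicates 1, 2, 3 and 4) and 4 Nestin-Pex5-/- mice (replicates 7, 8, 9 and 10), 1 array per mouse. In Nestin-Pex5-/- mice, Cre recombinase driven by the Nestin promoter, which is active in neural progenitors, removes loxP-flanked Pex5, the import receptor of peroxisomal matrix proteins, so that neural cells lack functional peroxisomes. All mice were of a Swiss Webster background and untreated, and whether the wild type mice carried Cre or floxed alleles is not given in the sources used here. The comparison asks which members of the family differ in RNA level between the genotypes.

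Pex5 itself was 8.66 ± 0.038 in wild type and 8.67 ± 0.071 in Nestin-Pex5-/- (mean log2 value ± SD, n = 4) on its brighter probe set, and 8.18 ± 0.078 and 8.11 ± 0.11 on the other. Where these probes lie relative to the deleted part is not known here, so they do not check the labels. The labelled tissue was checked against hypothalamic neuropeptides, and the probe sets of Pmch, Avp and Hcrt were bright, at 12.64, 11.52 and 10.59 in wild type and 12.51, 11.52 and 10.59 in Nestin-Pex5-/-. Of 12 hypothalamic neuron markers measured, none was called higher and 1 lower, the transcription factor Nkx2-1 (0.804-fold), and the median log2 difference was -0.19. Among all genes, 3.98% were called higher and 0.791% lower. Wild type replicate 4 stood apart in choroid plexus genes (mean log2 value of 7 genes 7.29; the remaining wild type arrays lay between 8.95 and 9.32 and Nestin-Pex5-/- between 8.24 and 8.93).

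In the ligand class 4 interleukin genes and in the receptor class 4 were higher in Nestin-Pex5-/- hypothalamus, and none of the 73 members was lower (limma, Benjamini-Hochberg adjusted p under 0.05 over all 18194 genes). The ligands were Il12b (5.25-fold), Il1b (2.60-fold), Il33 (1.48-fold) and Il1a (1.35-fold). The receptor chains were Il10ra (1.86-fold), Il10rb (1.5-fold), Il17ra (1.44-fold) and Il6st (1.33-fold). The 8 members were 11% of the family, and of all genes tested 3.98% were called higher and 0.791% lower. Without adjustment, 18 members had a p under 0.05 and were higher, and 7 were lower; of all 18194 genes, 1611 and 1457 did so. The median log2 difference was -0.01 over the 34 ligands and 0.02 over the 35 receptor chains, against -0.03 over all genes. Scaling the arrays to Actb, which moved the median of all genes by -0.13 on the log2 scale, gave 2 ligands higher and 2 lower (Il1f9 and Il9) and 3 receptor chains higher and 1 lower (Il2ra). Without wild type replicate 4, 3 ligands (all but Il33) and 7 receptor chains (Il13ra1, Il1rl2 and Il6ra in addition) were higher. The ligands higher were only 2, Il12b and Il1b, when any single array among wild type replicates 2 and 3 and Nestin-Pex5-/- replicates 8 and 9 was left out, and the receptor chains only 2, Il10ra and Il6st, without Nestin-Pex5-/- replicate 8. In bulk tissue, more cells of a type and more RNA per cell cannot be told apart.

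**Figure D1:**
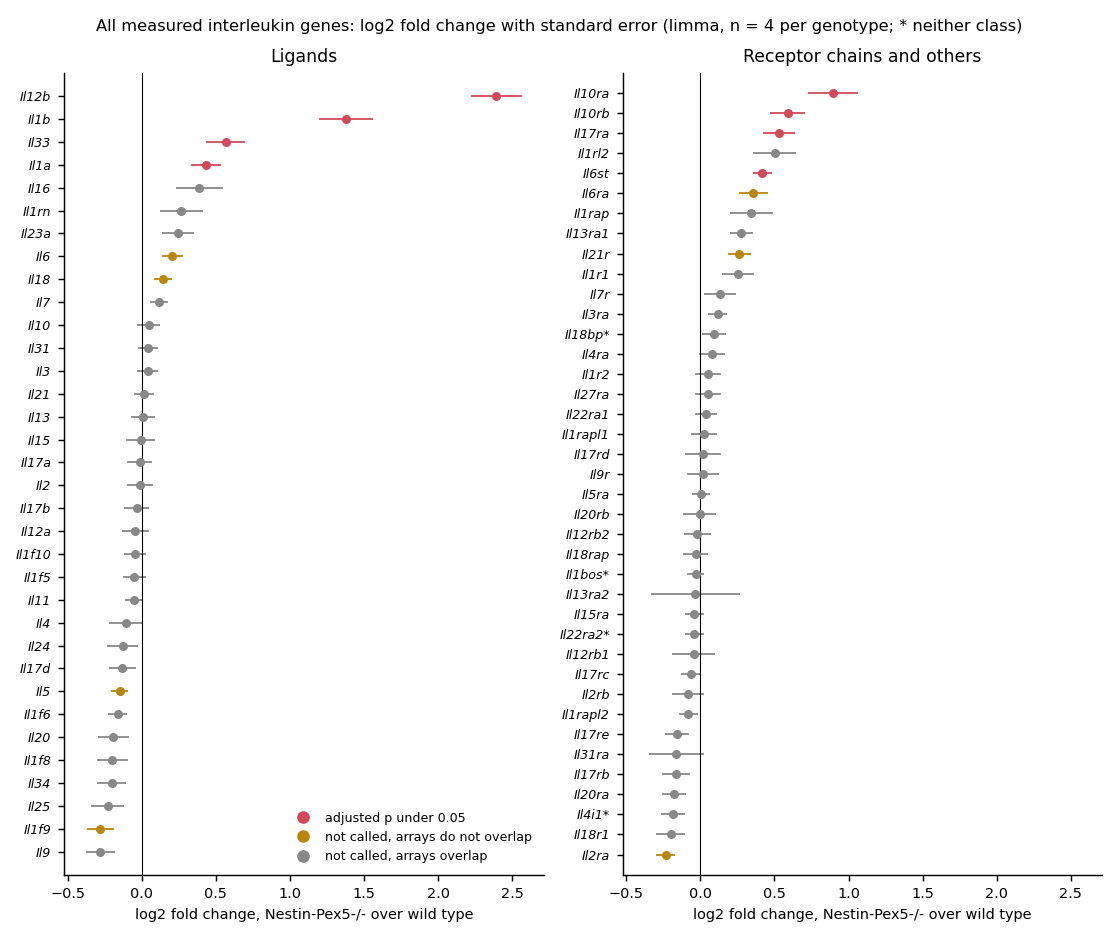
Log2 fold change of every measured interleukin gene, Nestin-Pex5-/- over wild type, with its standard error (limma, n = 4 per genotype); ligands and receptor chains are in separate panels and an asterisk marks the 4 members of neither class. Il12b at 2.39 and Il1b at 1.38 lie furthest to the right, most members lie within 0.3 of 0, and no member called lies to the left.

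Most of the family gave dim probe sets. The main probe set of a gene, its brightest over the 8 arrays, was below the median of all genes (log2 value 7.75) for 67 of the 73 members. The 6 above it were Il6st, Il18, Il33, Il10rb, Il1rap and Il17re. Of the 8 genes called, Il33, Il10rb and Il6st were above this median, and Il12b, Il1b, Il1a, Il10ra and Il17ra below it. A dim value may hold much background signal, which can make a fold change an underestimate, and brightness of different probe sets does not rank their transcripts.

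**Figure D2:**
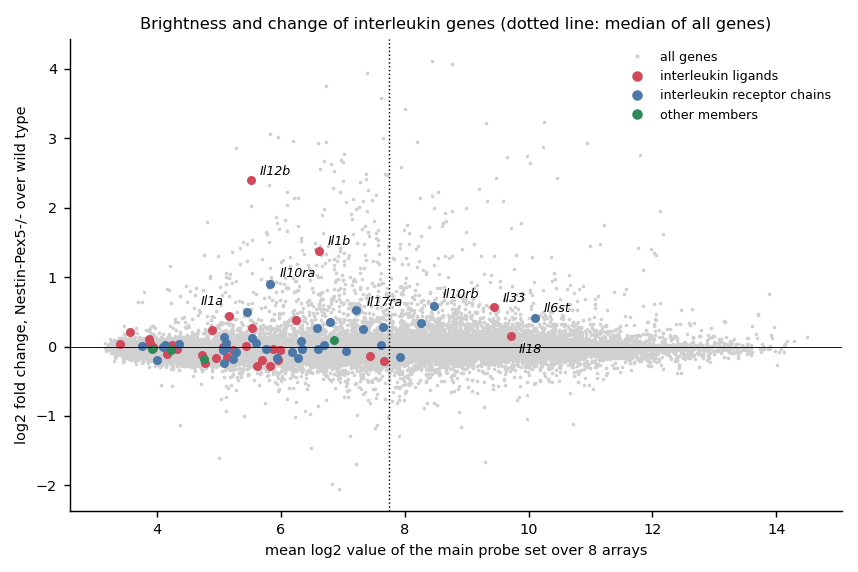
Mean log2 value of the main probe set over the 8 arrays against the log2 fold change, Nestin-Pex5-/- over wild type, for all 18194 genes (grey) and for the interleukin ligands, receptor chains and other members (coloured); the dotted line is the median of all genes, 7.75. Il12b, Il1b, Il1a, Il10ra and Il17ra are left of the line and Il33, Il10rb and Il6st right of it.

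Among the ligands, the promoters of the 3 proinflammatory cytokine genes called, Il12b, Il1b and Il1a, are shown. Each gene was called on its own, and whether they change together was not tested. They are the 250 bases before the RefSeq start site in build GRCm38.p6, read on the gene's own strand. Il12b lies at chr11:44399813-44400062 (plus strand), Il1b at chr2:129371140-129371389 (minus strand) and Il1a at chr2:129309973-129310222 (minus strand). Capitals mark matches to GAGGAA on either strand (the core of the PU box bound by the myeloid factor PU.1, on the opposite strand TTCCTC) and to TGACTCA (AP-1).
Il12b: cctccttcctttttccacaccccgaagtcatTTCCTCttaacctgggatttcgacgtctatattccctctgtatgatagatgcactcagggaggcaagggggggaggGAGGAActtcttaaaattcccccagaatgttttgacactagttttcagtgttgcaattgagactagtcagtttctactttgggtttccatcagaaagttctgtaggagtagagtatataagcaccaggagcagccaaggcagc
Il1b: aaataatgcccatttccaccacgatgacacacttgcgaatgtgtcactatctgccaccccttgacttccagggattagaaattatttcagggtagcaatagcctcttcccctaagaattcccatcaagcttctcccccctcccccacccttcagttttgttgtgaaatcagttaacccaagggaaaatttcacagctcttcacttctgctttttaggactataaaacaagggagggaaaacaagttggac
Il1a: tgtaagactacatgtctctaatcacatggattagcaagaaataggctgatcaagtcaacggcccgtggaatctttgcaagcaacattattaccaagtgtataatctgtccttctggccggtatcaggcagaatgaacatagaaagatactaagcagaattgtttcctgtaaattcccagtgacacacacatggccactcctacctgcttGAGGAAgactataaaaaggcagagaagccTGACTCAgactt

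GAGGAA was found 2 times before Il12b, and 1 time before Il1a together with 1 match to TGACTCA; the windows do not overlap each other and neither do the matches. No match to these letters, nor to TTCNNNGAA (GAS), GAAA followed after any 2 bases by GAAA (an interferon regulatory factor repeat) or GGG followed after any 5 bases by CC (NF-kB), was found in the Il1b window. GAGGAA occurred on either strand in 23.3% of 32851 promoter windows of this length and TGACTCA in 4.46%, and the other 3 motifs in 7.02%, 2.98% and 45.8%. Promoters were given for 57 of the 73 members and 5 of the 8 called. Of the 57, GAGGAA was in 19, TGACTCA in 12, TTCNNNGAA in 8, the interferon regulatory factor repeat in 1 and the NF-kB letters in 29, and of the 5, only those of Il12b and Il1a held any of them. A member with several start sites was counted if any of its windows held the letters. The percentages are per window, so these counts are not comparable with them. A match is a description of the letters, and nothing about the binding of a factor was measured.

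Il12b encodes the subunit that pairs with Il12a to form IL-12 and with Il23a to form IL-23, cytokines that drive T helper and natural killer cell responses. The log2 value was 4.53, 4.4, 4.29 and 4.07 in wild type replicates 1 to 4 and 6.97, 7.09, 6.44 and 6.35 in Nestin-Pex5-/- replicates 7 to 10. The groups did not overlap, and the lowest Nestin-Pex5-/- array was above the highest wild type array by more than the whole spread within either genotype. The log2 difference was 2.39 (95% confidence interval 2.0 to 2.78, adjusted p = 2.64e-05). A second probe set of Il12b gave 3.99 ± 0.14 in wild type and 6.49 ± 0.32 in Nestin-Pex5-/- (SD, n = 4), a 5.68-fold difference. The partner subunits did not pass the test. Il23a was 4.77 ± 0.15 in wild type and 5.01 ± 0.19 in Nestin-Pex5-/- (1.18-fold, adjusted p = 0.29), and Il12a was 4.34 ± 0.17 and 4.30 ± 0.12 (0.971-fold, adjusted p = 0.86). The receptor chains of IL-12, Il12rb1 and Il12rb2, were at 0.969-fold and 0.985-fold (adjusted p = 0.91 and 0.93).

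Il1b encodes IL-1 beta, which is made as a precursor, cut by caspase 1 and acts as a central proinflammatory cytokine. Its log2 value was 5.65, 5.61, 5.93 and 6.50 in wild type and 7.13, 7.37, 7.50 and 7.21 in Nestin-Pex5-/-. Wild type replicate 4 was the highest of its group and still lay below every Nestin-Pex5-/- array. Nestin-Pex5-/- exceeded wild type by a log2 difference of 1.38 (95% confidence interval 0.97 to 1.79, adjusted p = 0.0017). The antisense transcript Il1bos, from the opposite strand of the locus, was 3.93 ± 0.065 in wild type and 3.9 ± 0.050 in Nestin-Pex5-/- (adjusted p = 0.81).

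Il1a encodes IL-1 alpha, which acts on the same receptor as IL-1 beta without needing the caspase cut. It was at 4.85, 4.92, 4.97 and 5.06 in wild type and 5.09, 5.46, 5.43 and 5.56 in Nestin-Pex5-/-. The groups met closely, with Nestin-Pex5-/- replicate 7 only just above wild type replicate 4. This amounted to a log2 difference of 0.44 (95% confidence interval 0.21 to 0.66, adjusted p = 0.038), and the call was lost without any 1 of wild type replicates 1, 2 and 3 or Nestin-Pex5-/- replicates 8, 9 and 10 (adjusted p 0.083 to 0.116) and with scaling to Actb (adjusted p = 0.056).

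Il33 encodes IL-33, a nuclear cytokine released by damaged cells that signals through Il1rl1, a chain not among the members measured. The log2 value was 9.38, 8.86, 9.22 and 9.15 in wild type and 9.83, 9.93, 9.69 and 9.43 in Nestin-Pex5-/-. Nestin-Pex5-/- replicate 10 was nearest to the wild type arrays, and the groups did not overlap. The log2 difference was 0.57 (95% confidence interval 0.27 to 0.86, adjusted p = 0.040). The call was lost without any 1 of wild type replicates 2, 3 and 4 or Nestin-Pex5-/- replicates 7, 8 and 9 (adjusted p 0.053 to 0.118), with scaling to Actb (adjusted p = 0.059) and with each probe set fitted on its own (adjusted p = 0.052). Il12b and Il1b, by contrast, stayed called with any 1 array left out.

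**Figure D3:**
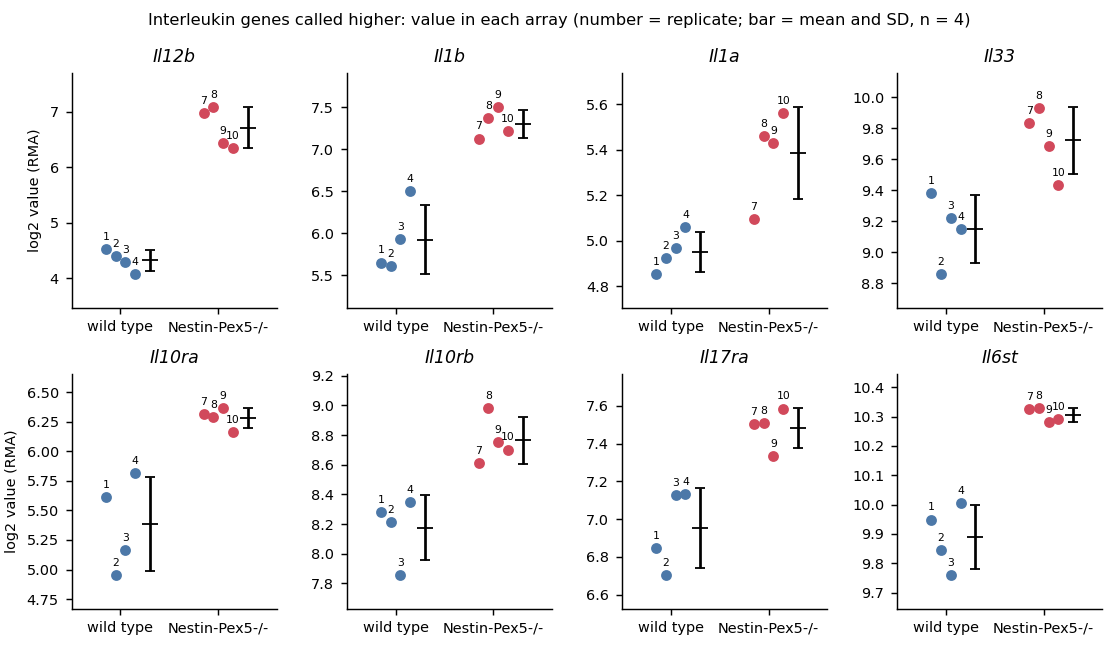
Log2 value (RMA) of the main probe set in each array, wild type and Nestin-Pex5-/-, for the 8 interleukin genes called higher; each number is a replicate and each bar the mean with its SD (n = 4). The genotypes do not overlap in any panel, and the gap is wide for Il12b and narrow for Il1a and Il33.

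The rest of the IL-1 family of ligands showed no call on its main probe sets. The family had 10 ligands measured, of which 3 were called higher and none lower, against 3.98% and 0.791% of all genes. Il18, which like IL-1 beta is cut by caspase 1, was bright and did not overlap between the genotypes, at 9.72, 9.56, 9.59 and 9.73 in wild type and 9.79, 9.86, 9.76 and 9.77 in Nestin-Pex5-/-, but the difference was 1.11-fold (adjusted p = 0.27). Il18bp, the secreted protein that neutralises IL-18, was at 1.06-fold (adjusted p = 0.62). Il1rn, the natural antagonist of the IL-1 receptor, was 5.41 ± 0.25 in wild type and 5.68 ± 0.24 in Nestin-Pex5-/- on its brightest probe set (1.2-fold, adjusted p = 0.39). Another of its 3 probe sets rose 1.62-fold, from 4.57 to 5.27 (adjusted p = 0.029 over all probe sets), and the other one was at 1.02-fold. Il1f9, an epidermal member of the family, was 5.62, 5.76, 5.73 and 5.92 in wild type and 5.41, 5.30, 5.60 and 5.62 in Nestin-Pex5-/-, which is 0.824-fold with touching but not overlapping groups (adjusted p = 0.14).

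Of the other ligands, Il6 was the only further one whose Nestin-Pex5-/- arrays all lay above the wild type arrays. Il6 encodes the acute-phase cytokine IL-6 and was among the dimmest probe sets of the array, at 3.33, 3.41, 3.58 and 3.56 in wild type and 3.62, 3.67, 3.72 and 3.69 in Nestin-Pex5-/-. The difference was 1.15-fold (adjusted p = 0.15). Il4, Il10 and Il13, the cytokines linked to type 2 and anti-inflammatory responses, were also dim and overlapped between the genotypes. Il4 was 4.22 ± 0.23 in wild type and 4.11 ± 0.10 in Nestin-Pex5-/- (log2 difference -0.11, 95% confidence interval -0.36 to 0.14). Il10 was 3.86 ± 0.052 and 3.91 ± 0.15 (0.05, interval -0.13 to 0.23), and Il13 was 5.44 ± 0.12 and 5.44 ± 0.11 (0.01, interval -0.17 to 0.18). These intervals hold differences of either sign, and at this brightness a low level of these transcripts may not be detectable.

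Il34 and Il17d were, after Il18 and Il33, the brightest ligand probe sets. Il34, made by neurons as a ligand of the microglial receptor Csf1r, was 7.58, 7.64, 7.97 and 7.88 in wild type and 7.55, 7.68, 7.57 and 7.45 in Nestin-Pex5-/- (0.869-fold, adjusted p = 0.33). Wild type replicates 1 and 2 lay among the Nestin-Pex5-/- arrays. Il17d, an IL-17 family cytokine, was 7.51 ± 0.19 and 7.38 ± 0.056 (0.913-fold, adjusted p = 0.51). Il16, a chemoattractant for CD4+ cells, was at 1.31-fold on its brightest probe set (adjusted p = 0.26) and between 0.935-fold and 1.0-fold on the other 3. Il5, an eosinophil growth factor, was the second ligand with every Nestin-Pex5-/- array below the wild type arrays, at 5.20 ± 0.041 in wild type and 5.05 ± 0.078 in Nestin-Pex5-/- (0.903-fold, adjusted p = 0.23). Such ligands were 5.88% of the class, near the 4.51% over all genes. No ligand of the common gamma chain (7 genes, with the IL-4 relative Il13 counted here), IL-17 (4), IL-10 (3) or common beta chain (2) families was called.

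Il10ra, the chain that binds IL-10, was 5.62, 4.95, 5.16 and 5.81 in wild type and 6.32, 6.29, 6.37 and 6.16 in Nestin-Pex5-/-. The wild type arrays were widely spread, with replicates 2 and 3 lowest, and all lay below the closely grouped Nestin-Pex5-/- arrays. The fitted log2 difference was 0.90 (95% confidence interval 0.52 to 1.28, adjusted p = 0.014). A probe set of nearly the same brightness gave 1.32-fold (adjusted p = 0.11 over all probe sets) and a dim one 1.05-fold, and the mean of the 3 probe sets gave a log2 difference of 0.46, still called.

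Il10rb, the chain that IL-10 receptors share with those of IL-22 and the lambda interferons, was 8.28, 8.21, 7.86 and 8.35 in wild type and 8.61, 8.99, 8.76 and 8.70 in Nestin-Pex5-/-. The groups did not overlap, and the lowest value, of wild type replicate 3, lay apart from the other wild type arrays. The fitted log2 difference was 0.59 (95% confidence interval 0.33 to 0.85, adjusted p = 0.019). Leaving out wild type replicate 2, Nestin-Pex5-/- replicate 8 or Nestin-Pex5-/- replicate 9 ended the call (adjusted p between 0.051 and 0.057). A dimmer second probe set of Il10rb gave 1.24-fold (adjusted p = 0.22 over all probe sets). Both chains of the IL-10 receptor were thus called on their brightest probe sets only, while Il10 itself, on a dim probe set, was not called. The 3 other receptor chains of the IL-10 family, Il20ra, Il20rb and Il22ra1, were not called, at 0.882-fold, 0.997-fold and 1.03-fold.

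Il17ra, the chain common to the receptors of the IL-17 family, was 6.85, 6.70, 7.13 and 7.13 in wild type and 7.50, 7.51, 7.33 and 7.59 in Nestin-Pex5-/-, with no overlap. This gave a log2 difference of 0.53 (95% confidence interval 0.29 to 0.77, adjusted p = 0.019). Its second probe set rose 1.33-fold (adjusted p = 0.040 over all probe sets). On the main probe set the call ended when wild type replicate 1, Nestin-Pex5-/- replicate 8 or Nestin-Pex5-/- replicate 10 was left out (adjusted p between 0.063 and 0.069), after a further quantile normalization (adjusted p = 0.052) and with scaling to Actb (adjusted p = 0.054). The partner chains Il17rb, Il17rc, Il17rd and Il17re were not called, at 0.890-fold, 0.957-fold, 1.01-fold and 0.897-fold.

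Il6st encodes gp130, the signal transducer shared by the receptors of IL-6, IL-11, LIF, oncostatin M and CNTF, and gave the brightest probe set of the family. It was 9.95, 9.84, 9.76 and 10.01 in wild type and 10.32, 10.33, 10.28 and 10.29 in Nestin-Pex5-/-. The Nestin-Pex5-/- arrays lay within 0.05 of each other and all above the wild type arrays. The log2 difference was 0.42 (95% confidence interval 0.27 to 0.56, adjusted p = 0.0045), and it stayed called with any 1 array left out. The other 3 probe sets were at 1.26-fold, 1.15-fold and 1.29-fold, each without overlap between the genotypes and none called over all probe sets (adjusted p 0.056 to 0.090). Il6ra, the chain that binds IL-6 and pairs with gp130, was 6.42, 6.6, 6.63 and 6.81 in wild type and 6.84, 7.17, 6.96 and 6.92 in Nestin-Pex5-/- (1.28-fold, adjusted p = 0.078). Its arrays did not overlap on this probe set, and a second probe set of similar brightness was at 1.02-fold.

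**Figure D4:**
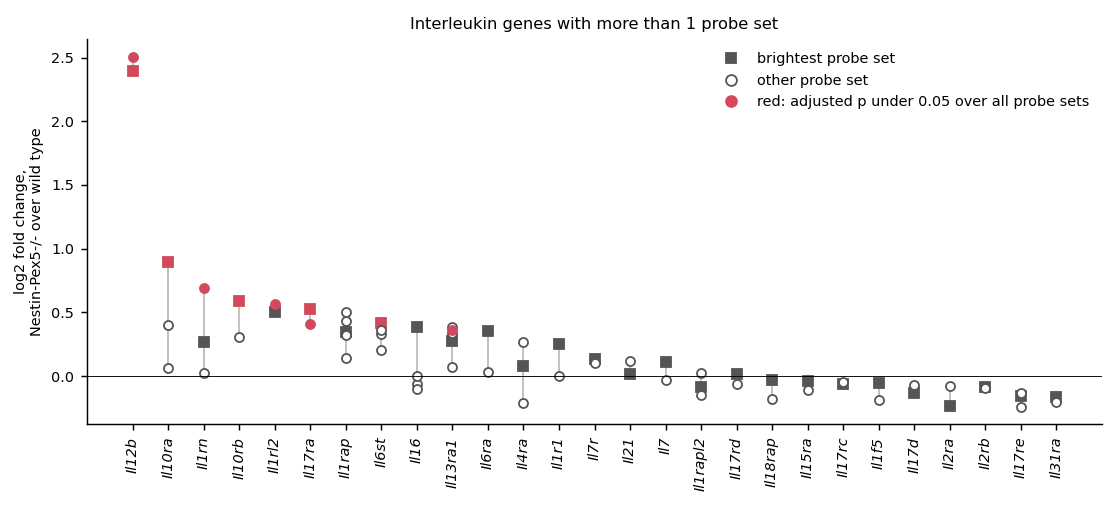
Log2 fold change, Nestin-Pex5-/- over wild type, of each probe set of the 27 interleukin genes with more than 1 probe set; squares are the brightest probe set of a gene, circles the others, and red marks an adjusted p under 0.05 over all probe sets. Both probe sets of Il12b and of Il17ra are red, and Il10ra, Il10rb and Il6st are red only on the brightest.

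The 73 members had 115 probe sets, and 46 members had a single one. Of the 27 with several, 22 had all probe sets on the same side of 0 and 5 did not (Il16, Il17rd, Il1rapl2, Il4ra and Il7). Besides Il1rn, 2 receptor chains had a probe set called on its own while the main one was not. Il1rl2, the receptor of IL-36, was 5.21 ± 0.27 in wild type and 5.71 ± 0.22 in Nestin-Pex5-/- on its main probe set (1.41-fold, adjusted p = 0.10) and 3.62 and 4.18 on a very dim second (1.48-fold, adjusted p = 0.043 over all probe sets). Il13ra1, a chain of the receptors of IL-13 and IL-4, was 7.52 ± 0.12 and 7.80 ± 0.096 on its main probe set (1.21-fold, adjusted p = 0.087), and 1 of the other 4 probe sets was called at 1.29-fold (adjusted p = 0.030).

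Most other receptor chains differed little between the genotypes. None of the 8 chains of the IL-1 receptor family was called; Il1r1, which binds both forms of IL-1, was 7.19 ± 0.19 in wild type and 7.45 ± 0.16 in Nestin-Pex5-/- (1.19-fold, adjusted p = 0.28), and its co-receptor Il1rap was at 1.27-fold (adjusted p = 0.28), with all 5 of its probe sets above 0. The common gamma chain itself, Il2rg, was not among the members measured. Of the 9 chains for common gamma chain cytokines and IL-13 none was called. The genotypes did not overlap in 1 with Nestin-Pex5-/- higher and in 1 with it lower. Over all genes 6.63% and 4.51% did so, and counts this small cannot be set apart from those shares. Il21r, for IL-21, was 6.49, 6.27, 6.48 and 6.58 in wild type and 6.63, 6.74, 6.85 and 6.65 in Nestin-Pex5-/- (1.2-fold, adjusted p = 0.12). Il2ra, the high-affinity chain for IL-2, was 5.14, 5.17, 5.21 and 5.31 in wild type and 5.05, 4.90, 5.04 and 4.90 in Nestin-Pex5-/- (0.851-fold, adjusted p = 0.081).

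No remaining member was called. Among the common gamma chain ligands, the T cell growth factors Il2, Il15 and Il21 were at 0.990-fold, 0.995-fold and 1.01-fold, the lymphocyte survival factor Il7 at 1.08-fold, and Il9, a growth factor of mast cells, at 0.824-fold (5.97 ± 0.18 in wild type and 5.69 ± 0.13 in Nestin-Pex5-/-, adjusted p = 0.18). Il17a, the cytokine that defines T helper 17 cells, was at 0.991-fold, and its relatives Il17b and Il25 were at 0.977-fold and 0.852-fold. Il20 and Il24, which act mainly on epithelia, were at 0.876-fold and 0.915-fold, and the gp130 ligand Il11 was at 0.965-fold. Of the receptor chains, the IL-18 receptor chains Il18r1 and Il18rap were at 0.871-fold and 0.978-fold, the decoy receptor Il1r2 at 1.04-fold, the IL-4 receptor chain Il4ra at 1.06-fold, Il7r at 1.1-fold and the IL-27 receptor chain Il27ra at 1.04-fold. Il1rapl1, a synaptic member of the IL-1 receptor family that is known from neurons, was 7.61 ± 0.15 in wild type and 7.64 ± 0.10 in Nestin-Pex5-/- (1.02-fold).

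Across the family, 12 members did not overlap between the genotypes with Nestin-Pex5-/- higher, and 3 with it lower. Of all genes, 6.63% and 4.51% did so. Il13ra2, a receptor for IL-13 usually described as a decoy, had the widest spread of the members described here, at 5.46, 5.66, 5.78 and 6.25 in wild type and 5.13, 5.25, 6.47 and 6.16 in Nestin-Pex5-/-. Nestin-Pex5-/- replicates 7 and 8 were the lowest arrays and replicates 9 and 10 among the highest. The mean log2 value of 9 meningeal genes was 7.26, 7.53, 8.70 and 8.66 in these 4 arrays and 8.19 to 8.85 in wild type, and its part in the Il13ra2 values was not tested.

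Of the partner chains and related ligands whose symbols do not start with Il, 4 of 12 rose and none fell. Over all genes, 3.98% were called higher and 0.791% lower. Osmr, the oncostatin M receptor chain that pairs with gp130, was 6.26 ± 0.22 in wild type and 8.27 ± 0.26 in Nestin-Pex5-/- (4.02-fold, adjusted p = 2.39e-05). Csf2rb, the common beta chain of the receptors of IL-3, IL-5 and GM-CSF, rose 3.22-fold, and its mouse paralogue Csf2rb2, specific to IL-3, rose 2.06-fold; the 2 genes are nearly identical in sequence, so their probe sets may not tell them apart. Ebi3, the subunit that forms IL-27 and IL-35, rose 2.74-fold. By contrast, the ligand Osm was at 1.06-fold (adjusted p = 0.72), the gp130 partner Lifr at 0.975-fold (adjusted p = 0.90) and the CNTF chain Cntfr at 0.825-fold (adjusted p = 0.082). The folds of Osmr, Csf2rb and Ebi3 were larger than those of all interleukin receptor chains and of all ligands except Il12b, a difference in fold that was not tested.

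Downstream genes were higher in part. The counts here stand against 3.98% of all genes called higher and 0.791% lower. In JAK and STAT signalling, 5 of 22 genes rose and none fell. Stat3, the main STAT factor of gp130, was 9.62 ± 0.13 in wild type and 10.43 ± 0.056 in Nestin-Pex5-/- (1.75-fold, adjusted p = 1.11e-04), and Socs3, a feedback inhibitor induced by STAT3, rose 1.69-fold (adjusted p = 0.0056). Stat6, the STAT factor of IL-4 and IL-13, rose 1.52-fold, Jak3, the kinase of the common gamma chain, 1.39-fold, and Stat2, of the interferon receptors, 1.27-fold. The kinases Jak1, Jak2 and Tyk2 were at 1.01-fold, 1.01-fold and 1.07-fold and were not called. In signalling of the IL-1 and IL-17 families, 3 of 20 genes rose and none fell, namely Nfkbiz, an inducible regulator of NF-kB target genes (2.96-fold, adjusted p = 6.11e-05), the NF-kB subunit Relb (1.44-fold, adjusted p = 0.028) and the adaptor Myd88 (1.39-fold, adjusted p = 0.014).

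Of 9 genes that process IL-1 beta and IL-18 or take part in their release, 5 rose and none fell. The shares over all genes were 3.98% higher and 0.791% lower. Pycard, the inflammasome adaptor, was 6.41 ± 0.29 in wild type and 8.37 ± 0.23 in Nestin-Pex5-/- (3.89-fold, adjusted p = 4.68e-05). Casp4 rose 2.19-fold, Casp8 1.99-fold, Casp1, the enzyme that cuts both precursors, 1.95-fold, and Gsdmd, the pore through which they leave the cell, 1.51-fold. Nlrp3, a sensor that assembles the complex, was 6.38 ± 0.24 and 6.42 ± 0.095 (1.03-fold, adjusted p = 0.90).

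**Figure D5:**
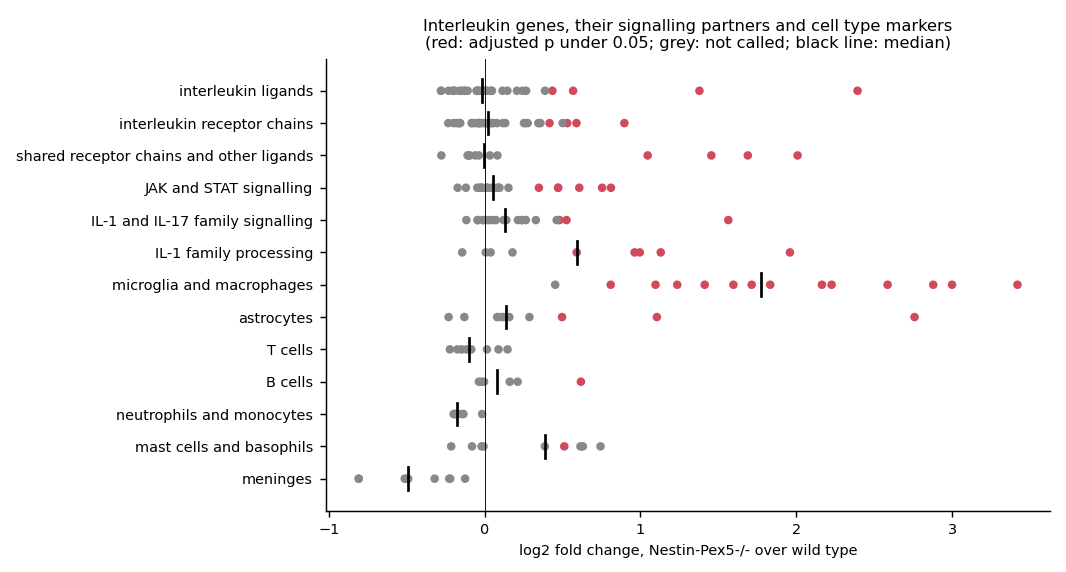
Log2 fold change, Nestin-Pex5-/- over wild type, of the interleukin ligands and receptor chains, of their signalling and processing partners and of cell type markers; each point is a gene, red marks an adjusted p under 0.05, and the black line is the median of a list. The microglia and macrophage markers are shifted furthest (median 1.77), whereas the interleukin lists centre on 0 with a few genes far to the right.

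Markers of several cell types were read beside these results. The lists are small, and over all genes 3.98% were called higher and 0.791% lower. Of 14 markers of microglia and macrophages, 13 rose and none fell. Their summed level, on the linear scale, was 4787 to 5423 in wild type and 15208 to 18966 in Nestin-Pex5-/-. Ptprc rose 10.7-fold and Adgre1, the gene of F4/80, 7.99-fold, and the homeostatic marker P2ry12 was at 1.37-fold (adjusted p = 0.055). Of 10 astrocyte markers 3 rose, led by Gfap (6.76-fold), and the summed level was 36450 to 40566 in wild type and 49189 to 55207 in Nestin-Pex5-/-. The mean log2 value of the microglia and macrophage list was 7.53 to 7.77 in wild type and 9.33 to 9.70 in Nestin-Pex5-/-. That of the astrocyte list was 11.03 to 11.25 and 11.54 to 11.65, so neither list overlapped between the genotypes. Most astrocyte markers were not called, and the median log2 difference of that list was 0.14. The part of either list in the differences of the interleukin genes was not tested. Of 8 T cell markers and 8 markers of neutrophils and monocytes none was called, and their summed levels overlapped or were lower in Nestin-Pex5-/- (T cells 436 to 504 in wild type and 383 to 463 in Nestin-Pex5-/-, neutrophils and monocytes 386 to 464 and 362 to 375). Both lists were dim, with mean log2 values over the 8 arrays of 5.22 to 5.48 and 5.19 to 5.55. The median of all genes was 7.75, so a small number of such cells may not be detectable here. Of 6 B cell markers 1 rose, Cd22, which microglia also express (1.53-fold), and of 9 markers of mast cells and basophils 1 rose, Mcpt4 (1.43-fold, adjusted p = 0.049). The summed level of the B cell list was 260 to 307 in wild type and 307 to 362 in Nestin-Pex5-/-, and that of the mast cell and basophil list 480 to 577 and 489 to 675. Of 10 neuronal, 9 oligodendrocyte and 9 endothelial markers none was called. The summed level of the neuronal list was nevertheless lower without overlap, at 61454 to 64688 in wild type and 59289 to 59992 in Nestin-Pex5-/-. The oligodendrocyte list overlapped, at 45112 to 62908 and 57782 to 69921, with a median log2 difference of 0.45. The endothelial list was at 2741 to 3474 and 2930 to 3267.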

How the data were processed

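The authors deposited log2 values from RMA (version not given in the sources used here), a method that subtracts background, equalises the distribution of the arrays and combines the probes of a set into 1 value. The table held 45101 probe sets, and 34958 were annotated with 1 gene. Each of the 18194 genes was represented by its brightest probe set over the 8 arrays, without a filter on dim genes. The difference between genotypes was fitted in limma 3.58.1 (R 4.3.3; lmFit and eBayes, with no covariate) with Benjamini-Hochberg adjustment over all genes. A gene was called at an adjusted p under 0.05. Each array was a separate mouse, so p-values set the genotype difference against the spread between mice of these groups. The eBayes step moderates each gene's variance with that of all genes. The script was tested on simulated data. The exact two-sided permutation test used for probe sets outside the fit enumerated 70 assignments and cannot go below p = 0.029. Python 3.11.15 made the tables and figures. The precision is limited by 4 arrays per genotype.

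The members and the gene lists were chosen with earlier results of these data known. Members described were those called, the 5 brightest ligands and receptor chains, those the study measured by qRT-PCR or names, and those whose probe sets differed in call. Members without overlap between genotypes, Il9, Il13ra2, Il16 and Il1r1 and the members listed only by their fold were named after their values were seen. Probe sets annotated with several genes were left out of the counts. Promoter windows came from RefSeq (GRCm38.p6). Alternatives changed the filter, the choice of probe set, the normalization, the variance model, the threshold and the arrays used. All columns of the table were mapped to a sample.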

Additional observations from a re-analysis of the deposited data

Results flagged for a closer look

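Il16 in wild type replicate 4 was at a log2 value of 5.72, below 6.15, 6.15 and 6.17 in the other wild type arrays, a gap to the nearest that was 0.961 of the range of the group. Among 56 groups of 4 arrays examined (28 members, those called and 20 others, in each genotype) this was the only such value, and chance gives about 1 in 20 groups.

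A probe set annotated with both Il4i1b and Il4i1 was not counted with the members. It was 5.19, 5.29, 5.17 and 5.28 in wild type and 5.71, 5.85, 5.96 and 5.82 in Nestin-Pex5-/-, a log2 difference of 0.60 without overlap (exact two-sided permutation p = 0.029, the smallest that 4 against 4 arrays allow). The probe set annotated with Il4i1 alone was 4.85 ± 0.11 in wild type and 4.67 ± 0.12 in Nestin-Pex5-/-.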

How the results depend on the processing

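Of the 454 recomputed values of 28 members (those called and 20 others described by name), 401 kept their direction and their side of the threshold, 27 lost a call, 15 gained one and 11 changed sign. Il12b, Il1b, Il10ra and Il6st were called in every alternative at the 0.05 threshold in which they were tested. The count of ligands higher, 4 in the main analysis, was 1 without genes below the median level, 2 when scaled to Actb, 2 at an adjusted p under 0.01, 6 with array weights and 2 to 3 with each array left out in turn. The count of receptor chains higher, also 4, was 2 without genes below the median level, 9 with array weights, 1 at an adjusted p under 0.01 and 2 to 7 with each array left out, highest without wild type replicate 4 and lowest without Nestin-Pex5-/- replicate 8. No ligand or receptor chain was lower except when scaled to Actb, with 2 ligands and 1 receptor chain. The filter on dim genes removes Il12b, Il1b, Il1a, Il10ra and Il17ra by construction, and for the other settings the cause was not tested.

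Changes of sign were found for 3 members near 0. The log2 difference of Il10 was -0.080 when scaled to Actb and -0.023 to 0.095 with each array left out. That of Il13 was -0.12 when scaled to Actb and -0.038 to 0.054 with each array left out. That of Il13ra2 was 0.013 when scaled to the reference genes, 0.40 with array weights and -0.27 to 0.17 with each array left out. No paired analysis was possible because the genotypes share no replicate number. Dim probe sets, 67 of the 73 members, limit what can be said of absent calls.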

Other observations

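Besides Il4i1, 2 further members of the interleukin family had a probe set that the annotation shares with another gene. The probe set of Iltifb and Il22 was 4.21 ± 0.43 in wild type and 3.9 ± 0.13 in Nestin-Pex5-/- (SD, n = 4), with wild type replicate 4 at 4.85 and the other arrays between 3.74 and 4.04 (exact two-sided permutation p = 0.14). The probe set of Ntan1, an asparagine amidohydrolase, and Il2 was 10.00 ± 0.10 and 9.94 ± 0.042 (exact two-sided permutation p = 0.34), whereas the probe set annotated with Il2 alone was 3.94 ± 0.18 and 3.92 ± 0.031.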
